A study of Mus musculus with 8 samples.

Results

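Sensory fibres of the vagus nerve reach the airways, heart and gut, and their cell bodies lie in the vagal ganglia. The genes described here are 7 of the 55335 in the deposited count table. They are 4 subunits of acid-sensing ion channels (Asic1, Asic2, Asic3 and Asic4) and 3 receptors named for proton sensing (Gpr4, Gpr65 and Gpr132), picked by name in GENCODE M21 and not by a threshold on their values. Ganglia came from wild-type mice challenged with HDM (by common usage house dust mite, an allergen) or with saline, and were collected 1.5 h after challenge number 4. Each group had 4 libraries, and each library was a pool of 6 to 8 ganglia from 3 to 4 mice. A pool has 1 number from 1 to 4 in each group, which equals its batch label. The sources used here do not give strain, sex, age, dose or route.

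Acid-sensing ion channels are sodium-conducting channels of the degenerin and epithelial sodium channel family. They are built from 3 subunits and open when the fluid outside the cell turns acid. The proton-sensing receptors are G protein-coupled receptors that are more active at low pH. Acid is a known stimulus of vagal airway afferents and evokes cough and reflex bronchoconstriction, and inflamed airways can be acidified. The comparison asks whether transcripts of these sensors differed in vagal ganglia shortly after allergen challenge.

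Library totals were 23952130 to 26670634 counts in HDM and 26868337 to 31281281 counts in saline. Sensory neuron markers were abundant in all 8 libraries, with summed levels of 12 markers of 10091 to 10732 CPM in HDM and 9530 to 10022 CPM in saline, where CPM is the count relative to the scaled library total. The HDM sums lay above the saline sums. Of those markers Prph, which encodes the neuronal filament protein peripherin, rose (1454 ± 57.4 CPM in HDM and 1210 ± 53.8 CPM in saline, SD, n = 4 each, log2 fold change 0.26, edgeR adjusted p = 0.0219). With pool number as a block Tubb3, Uchl1 and Avil also passed as higher, where 3.01% of all genes did. After a correction for GC content 0 of all genes tested passed, and so none of the 12 did. Prph then had a log2 fold change of 0.14. The 12 were split in direction, with 6 log2 fold changes above 0 and 6 below. They ran from −0.17 to 0.26, with a median of 0.019. Prph was not called without HDM pool 1, 2 or 4, without saline pool 3, or without any 1 of the 4 batches (edgeR adjusted p between 0.0618 and 0.186). Pool 4 of HDM stood apart in sympathetic neuron markers (summed level 919 CPM, against 334 to 379 CPM in the other HDM pools and 174 to 430 CPM in saline). Pool 1 of saline stood apart in red blood cell markers, at 246 CPM. The HDM pools had 45.5 to 77.6 CPM and the other saline pools 72.9 to 76.1 CPM. Saline pool 1 also had the highest endothelial, macrophage, lymphocyte, fibroblast, myelinating Schwann cell, satellite glia and pericyte sums. Its sensory neuron sum was the lowest of the 8 libraries. In such mixed tissue, fewer cells of a type and less RNA per cell cannot be told apart.

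None of the 5 members with enough counts passed the test between HDM and saline. Over all 17618 genes tested, 244 passed (1.38%). At an unadjusted p under 0.05, 1 of the 5 members passed, as lower, where 7.69% of all genes passed as lower and 18.1% in either direction (edgeR quasi-likelihood test, 2-sided, Benjamini-Hochberg adjustment over all genes, threshold 0.05). No tested member had groups that did not overlap in CPM, against 10.6% of all genes. Asic4 and Gpr132 had too few counts to be tested. The fitted difference was within 0.10 on the log2 scale for Asic1, Asic2, Asic3 and Gpr65. Gpr4 had the largest, at −0.65.

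Reads of 50 bases could be shared between subunits if their coding sequences were near-identical, and they are not. Asic1 and Asic2 were the closest pair, with 69.4% identical bases over the aligned coding sequence, and the other ASIC pairs had 63.2 to 65.6%. The 3 receptors had 54.5 to 59.6% between them. The longest run of identical bases between any pair of ASIC coding sequences was 32, shared by Asic1 and Asic2, shorter than a read. It is shown in capitals within 74 coding bases of each gene, from GENCODE M21 transcripts on GRCm38, at chr15:99694766-99694839 on the plus strand for Asic1 and chr11:80971469-80971542 on the minus strand for Asic2.
Asic1: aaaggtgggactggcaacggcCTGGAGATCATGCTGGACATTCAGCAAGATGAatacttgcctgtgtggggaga
Asic2: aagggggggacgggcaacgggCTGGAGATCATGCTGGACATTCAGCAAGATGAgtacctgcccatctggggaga
The other 5 ASIC pairs shared runs of at most 22 bases, and the receptor pairs at most 17. Coding sequence of the longest isoform was compared, so untranslated regions were not covered.

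Asic3 encodes the subunit most typical of sensory neurons and gives a channel with a sustained current in mild acid. Asic3 (ENSMUSG00000038276, GRCm38 chromosome 5, 24413392 to 24417835) had 78.7, 87.7, 89.4 and 70.1 CPM in HDM pools 1 to 4, against 81.4, 91.5, 90.2 and 83.8 CPM in saline pools 1 to 4. HDM was lower in 4 of 4 batches, and the groups overlapped. That pairing rests on the labels, and deviations of same-numbered pools from their group means correlated by only −0.048 to 0.039. The means were 81.5 ± 8.92 CPM in HDM and 86.7 ± 4.92 CPM in saline (SD, n = 4 each). The log2 fold change was −0.090 (SE 0.070, 95% interval −0.24 to 0.062, edgeR adjusted p = 0.532), an interval of 0.846 to 1.04 times the saline level. Without HDM pool 4, which had the lowest value, the log2 fold change was −0.024.

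Asic2 encodes a subunit that mainly modifies channels formed with other subunits, and one of its isoforms is not opened by protons when alone. Asic2 (ENSMUSG00000020704, chromosome 11, 80880169 to 81968457) had 72.0, 78.3, 75.3 and 75.3 CPM in HDM, against 67.4, 75.1, 68.4 and 78.4 CPM in saline. HDM was higher in 3 of 4 batches and the groups overlapped. The log2 fold change was 0.057 (SE 0.054, 95% interval −0.060 to 0.17, edgeR adjusted p = 0.616). The difference changed sign, to −0.031, after the GC correction.

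RefSeq gives Asic2 a pair of start sites far apart, known as the starts of its isoforms, and the gene counts pool both. They are shown because a shift between them would not be seen in these counts. Each window runs from 250 bases before to 50 bases after the start, 5′ to 3′ in the direction of the gene, from RefSeq on GRCm38.p6, with CpG dinucleotides in capitals.
Asic2 at chr11:81968347-81968646, minus strand: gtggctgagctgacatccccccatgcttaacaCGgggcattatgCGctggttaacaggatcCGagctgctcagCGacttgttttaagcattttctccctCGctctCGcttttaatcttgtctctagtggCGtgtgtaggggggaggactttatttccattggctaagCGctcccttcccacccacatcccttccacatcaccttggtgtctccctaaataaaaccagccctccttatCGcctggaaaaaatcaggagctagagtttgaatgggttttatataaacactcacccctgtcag
Asic2 at chr11:81152854-81153153, minus strand: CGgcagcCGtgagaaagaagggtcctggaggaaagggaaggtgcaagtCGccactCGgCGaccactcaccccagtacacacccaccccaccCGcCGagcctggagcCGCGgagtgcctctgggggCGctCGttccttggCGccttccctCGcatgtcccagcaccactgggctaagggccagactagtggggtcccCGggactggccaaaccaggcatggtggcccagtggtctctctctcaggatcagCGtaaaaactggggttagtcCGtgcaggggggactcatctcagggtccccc
The upstream window had 9 CpG dinucleotides and 49.7% GC, and the other had 16 and 65.3%, beside a median of 7 and 52.7% over 32851 such windows.

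Asic1 encodes a subunit that opens at mild acid and is found in central and sensory neurons. Asic1 (ENSMUSG00000023017, chromosome 15, 99670368 to 99701130) had 38.8, 42.4, 43.6 and 38.3 CPM in HDM, against 36.9, 37.6, 35.3 and 43.6 CPM in saline. HDM was higher in 3 of 4 batches, and the highest values were near-equal, in HDM pool 3 and saline pool 4. The log2 fold change was 0.088 (SE 0.069, 95% interval −0.061 to 0.24, edgeR adjusted p = 0.532). It was 0.16 without saline pool 4 and 0.002 after the GC correction and was not called in either fit.

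Asic4 encodes a subunit that is not opened by protons. Asic4 (ENSMUSG00000033007, chromosome 1, 75450436 to 75474343) had 0, 2, 1 and 5 counts in HDM, against 0, 3, 1 and 0 counts in saline. It was at or near 0 in every library, where 3 counts, the limit that a count of 0 allows, equal 0.0959 to 0.125 CPM. An exact permutation test of CPM gave p = 0.457 (2-sided, 70 assignments, smallest possible p 0.0286). A difference was not detectable at this depth, and 18.1% of its exonic bases overlap a gene on the other strand. The remaining family member Asic5 had 0 counts in all 8 libraries.

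**Figure D1:**
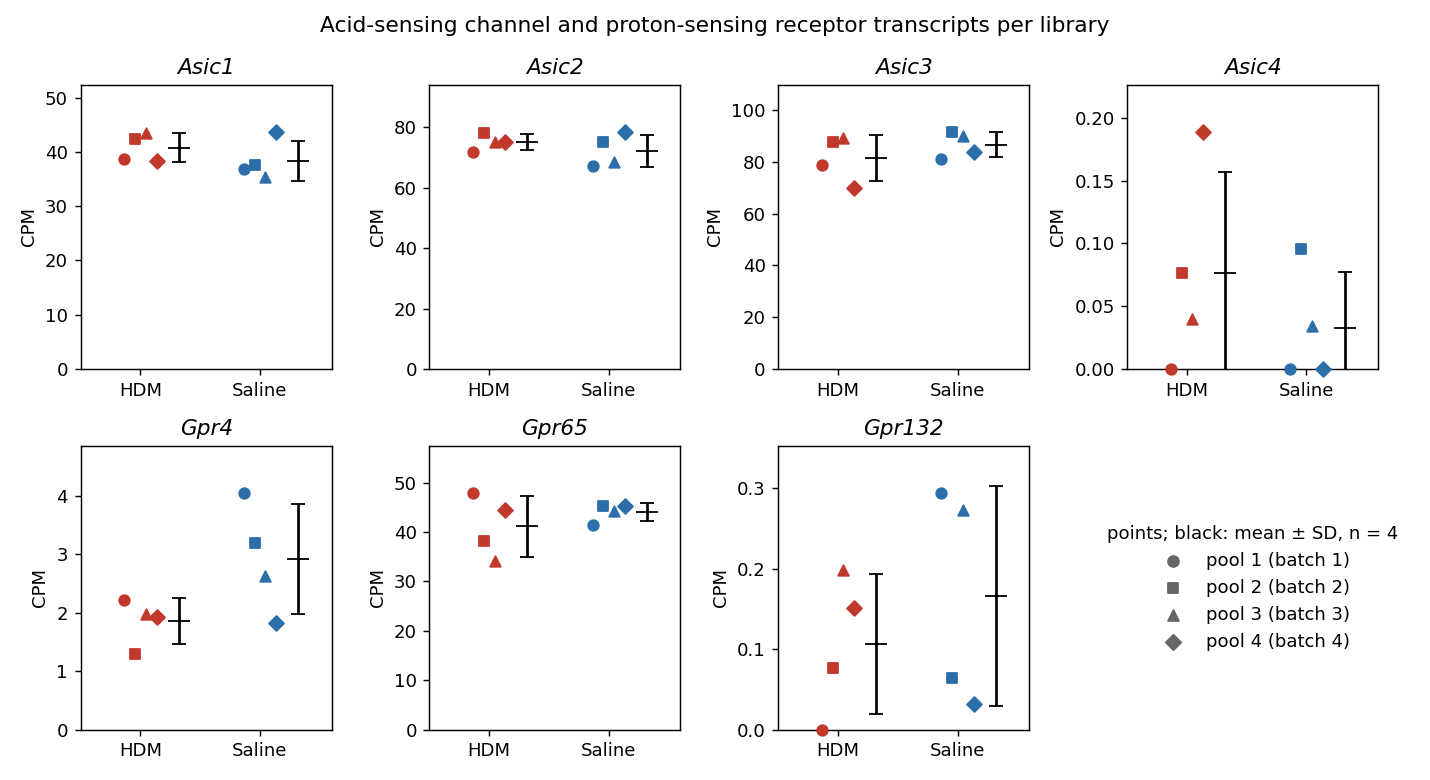
CPM of each of the 7 genes in every library (y axis from 0, separate scale per gene), with HDM pools at the left and saline pools at the right. Shapes mark the pool number, and black bars give the mean and SD of 4 libraries, clipped at 0 for Asic4. Points of both groups share a range in every panel, and Gpr4 shows 3 saline pools, at 2.63 to 4.05 CPM, above the 4 HDM pools, at 1.29 to 2.22 CPM.

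The makeup of the ASIC transcripts was described per transcript length, as FPKM, CPM per kilobase of the exonic length that the table gives. Asic3 made up 57.5 ± 2.23% of the summed FPKM of the 4 subunits in HDM and 60.2 ± 2.33% in saline (SD, n = 4 each). Asic2 made up 30.3 ± 1.99% in HDM and 28.5 ± 1.39% in saline, and Asic1 made up 12.2 ± 0.254% in HDM and 11.2 ± 1.00% in saline. The ranges of the groups overlapped for all of them. The shares depend on the length used. With the shortest protein-coding transcripts Asic1 made up 22.1 ± 0.40% in HDM and 20.6 ± 1.63% in saline, and Asic3 50.3 ± 2.07% in HDM and 53.2 ± 2.56% in saline. The ratio of Asic3 to Asic1 CPM was 2.03, 2.07, 2.05 and 1.83 in HDM, against 2.21, 2.43, 2.55 and 1.92 in saline. It was lower in HDM in 4 of 4 batches, which are paired by label only, and the groups overlapped. Transcripts of Asic1, Asic2 and Asic3 have 56.4, 56.5 and 57.3% GC.

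Among the receptors, Gpr65 encodes a receptor that raises cyclic AMP at low pH and is known from lymphocytes and macrophages. In the mouse it also marks a class of vagal neurons that send fibres to the gut. Gpr65 (ENSMUSG00000021886, chromosome 12, 98268635 to 98276644) had 47.9, 38.3, 34.2 and 44.5 CPM in HDM, against 41.5, 45.3, 44.3 and 45.2 CPM in saline. The HDM pools had both the highest and the lowest value, with an SD of 6.15 CPM in HDM and 1.81 CPM in saline. The log2 fold change was −0.098 (SE 0.085, 95% interval −0.28 to 0.085, edgeR adjusted p = 0.574). It was −0.21 without batch 1 and −0.012 after the GC correction.

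In each of the 8 libraries Gpr65 was above the summed level of 14 lymphocyte markers, which was 1.88 to 2.90 CPM in HDM and 1.56 to 4.71 CPM in saline. The summed level of 14 macrophage markers was 99.0 to 126 CPM in HDM and 96.5 to 168 CPM in saline. Gpr65 had its lowest saline value in pool 1, where that sum was highest. In HDM pools 1 to 4 the sums were 112, 99.0, 126 and 121 CPM, with Gpr65 at 47.9, 38.3, 34.2 and 44.5 CPM. CPM takes no account of gene length, so these are not levels per transcript. Which cells Gpr65 came from was not tested. Of the lymphocyte markers 13 of 14 had too few counts for a test. On the other strand, a gene of 1 to 16 counts per library overlaps 24.7% of the exonic bases of Gpr65.

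Gpr4 encodes a receptor of endothelial cells that raises cyclic AMP in acid. Gpr4 (ENSMUSG00000044317, chromosome 7, 19212538 to 19224174) had 53, 34, 50 and 51 counts in HDM, against 110, 100, 77 and 56 counts in saline. These are 2.22, 1.29, 1.98 and 1.92 CPM in HDM, against 4.05, 3.18, 2.63 and 1.82 CPM in saline. Saline pools 1 to 3 lay above all HDM pools, and saline pool 4 lay among them. The means were 1.85 ± 0.395 CPM in HDM and 2.92 ± 0.938 CPM in saline (SD, n = 4 each). The log2 fold change was −0.65 (SE 0.24, 95% interval −1.16 to −0.14, edgeR unadjusted p = 0.0161, adjusted p = 0.171). It was −0.46 without saline pool 1 and −0.82 without saline pool 4. The smallest adjusted p over the alternatives run was 0.0601, in the fit with no filter on low counts.

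Endothelial markers are given beside it. Their summed level over 12 markers was 199, 190, 216 and 208 CPM in HDM, against 248, 203, 182 and 194 CPM in saline, with none of them at 0. The groups overlapped, and saline pool 1 had the highest sum and the highest Gpr4. Of the 12, 0 passed in either direction, and the median log2 fold change was −0.013, beside −0.006 over all genes tested. Slco1a4, a transporter of brain and nerve endothelium, had −0.27, Ly6c1 −0.11, Egfl7 0.12 and Cldn5, a tight junction protein, 0.23. Gpr4 per 100 CPM of these markers was 1.11, 0.681, 0.921 and 0.926 CPM in HDM, against 1.63, 1.57, 1.44 and 0.938 CPM in saline. On that scale all HDM pools except pool 1 were below all saline pools.

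The start regions of the receptor with the lowest p and of the most abundant receptor are shown for their contrast in base makeup, in the same form as for Asic2.
Gpr4 at chr7:19212288-19212587, plus strand: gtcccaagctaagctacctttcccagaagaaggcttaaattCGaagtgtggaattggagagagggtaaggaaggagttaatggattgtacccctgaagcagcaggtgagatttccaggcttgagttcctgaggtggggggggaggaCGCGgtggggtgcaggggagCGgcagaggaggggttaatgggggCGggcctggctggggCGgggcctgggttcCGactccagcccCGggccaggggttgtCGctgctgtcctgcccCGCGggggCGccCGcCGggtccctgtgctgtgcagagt
Gpr65 at chr12:98268385-98268684, plus strand: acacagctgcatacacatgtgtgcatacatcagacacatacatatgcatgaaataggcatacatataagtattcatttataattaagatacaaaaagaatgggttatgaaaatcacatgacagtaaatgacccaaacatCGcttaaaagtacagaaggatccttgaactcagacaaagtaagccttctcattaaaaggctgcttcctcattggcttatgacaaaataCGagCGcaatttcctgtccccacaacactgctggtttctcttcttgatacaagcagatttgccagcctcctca
Gpr4 had 14 CpG dinucleotides and 64.0% GC here, and Gpr65 had 3 and 38.3%. The letters GGGCGG, the core of the GC box, occur 2 times in the Gpr4 window, counted on both strands, and 35.7% of all windows hold at least 1. They are absent from the Gpr65 window.

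Gpr132 encodes a receptor of immune cells that responds to protons weakly and to lipids. Gpr132 (ENSMUSG00000021298, chromosome 12, 112850873 to 112868228) had 0, 2, 5 and 4 counts in HDM, against 8, 2, 8 and 1 counts in saline. The groups overlapped (exact permutation test of CPM, 2-sided, p = 0.486, smallest possible p 0.0286). A difference was not detectable at this depth.

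Per transcript length the order of levels was Asic3, Gpr65, Asic2, Asic1, Gpr4, Gpr132 and Asic4. Asic3 had 33.6 ± 3.68 FPKM in HDM and 35.8 ± 2.03 FPKM in saline, above 92.7% of all tested genes. Gpr65 had 19.9 ± 2.97 FPKM in HDM and 21.3 ± 0.876 FPKM in saline. Asic2 had 17.6 ± 0.607 FPKM in HDM and 17.0 ± 1.24 FPKM in saline. The ranges of Gpr65 and Asic2 over the 8 libraries overlapped, at 16.5 to 23.2 and 15.8 to 18.4 FPKM, with Gpr65 higher in 7 of 8 libraries. Asic1 had 7.11 ± 0.457 FPKM in HDM and 6.68 ± 0.634 FPKM in saline, and Gpr4 had 0.643 ± 0.137 FPKM in HDM and 1.01 ± 0.326 FPKM in saline. Gpr132 and Asic4 lay below 0.11 FPKM in every library, and their ranges overlapped.

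The place of Asic1 and Asic2 in this order depends on the length used. The table gives Asic1 5740 exonic bases, while its protein-coding transcripts have 1818 to 4114. With the longest protein-coding transcript Asic2 had 21.9 FPKM in HDM and 21.05 FPKM in saline, while the single length of Gpr65 left it at 19.9 FPKM in HDM and 21.3 FPKM in saline. With the shortest one Asic1 had 22.4 FPKM in HDM and 21.1 FPKM in saline, and its range over the 8 libraries then overlapped that of Gpr65. Asic2 with the shortest one had 27.9 FPKM in HDM and 26.8 FPKM in saline, and its range lay above that of Gpr65. Asic3 was the highest of the 7 under each of these lengths.

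**Figure D2:**
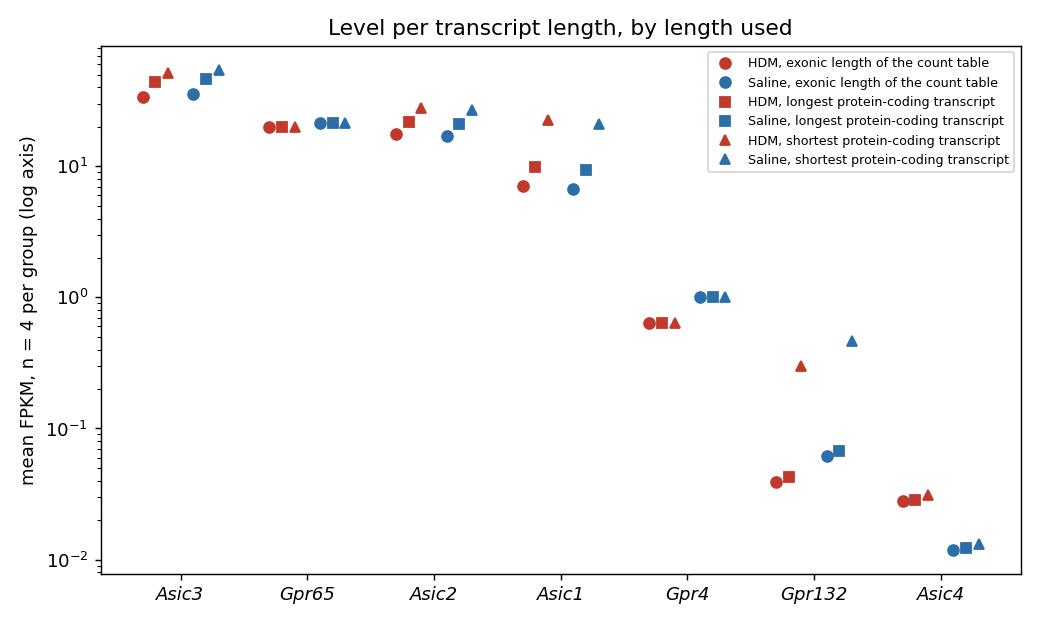
Mean FPKM of the 7 genes (log axis) in HDM and saline, 4 libraries each, with 3 choices of transcript length. Asic3 is at the top under each length, Asic1 moves from 7.11 to 22.4 FPKM in HDM with the length used, and Gpr4, Gpr132 and Asic4 lie at or below 1.01 FPKM with the exonic length.

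The fit was repeated with pool number as a block and with a correction for GC content. With the block 0 of the 5 tested members passed, where 4.05% of all genes did (3.01% as higher and 1.03% as lower). After the GC correction 0 of all genes passed (11.7% at an unadjusted p under 0.05). The correction moved Asic1, Asic2 and Asic3 by −0.086, −0.087 and −0.095 and Gpr65, whose transcript has 42.3% GC beside a median of 49.9%, by 0.086. Asic3 then had a log2 fold change of −0.18 (95% interval −0.35 to −0.023, edgeR adjusted p = 0.361), and −0.19 with block and correction (95% interval −0.30 to −0.074, edgeR adjusted p = 0.149). In the fit with block and correction 0.289% of all genes passed, and 14.5% had an unadjusted p under 0.05. The signs of Asic1, Asic3, Gpr4 and Gpr65 were the same in all 4 fits, with Asic1 at 0.002 and 0.005 in the corrected ones. The sign of Asic2 was not.

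**Figure D3:**
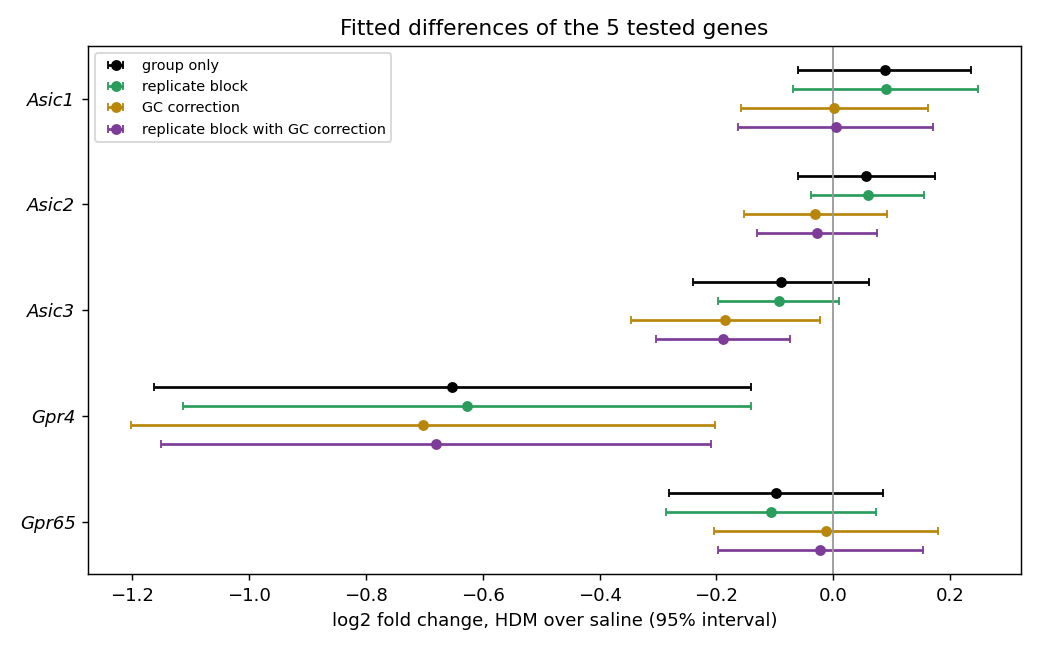
Log2 fold change of HDM over saline with its 95% interval (x axis) for the 5 tested genes, in 4 fits of the same 8 libraries. Intervals of Asic1, Asic2 and Gpr65 hold 0 in all 4 fits. Those of Gpr4 lie below 0 in all 4 and that of Asic3 in both GC-corrected fits, and no adjusted p passed. An interval that leaves out 0 equals an unadjusted p under 0.05. Of all 17618 genes, 18.1% had such a p in the fit by group alone and 3680 genes with the block. After the GC correction 11.7% had one, and 14.5% with block plus correction.

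A mouse vagal ganglion is a fusion of the nodose with the jugular ganglion, which differ in embryonic origin. Markers of the 2 were summed per library. The 8 jugular markers, of which Wnt1, named after its values were seen, had 0 counts in every library, had 416, 475, 529 and 426 CPM in HDM, against 469, 525, 524 and 531 CPM in saline. The HDM pools with the lowest jugular sums, 1 and 4, also had the lowest Asic3. In saline, pool 1 had the lowest sum and the lowest Asic3, while pool 4 had the highest sum of all 8 pools and an Asic3 of 83.8 CPM, below saline pools 2 and 3. The 8 nodose markers had 813, 702, 616 and 841 CPM in HDM, against 628, 624, 618 and 705 CPM in saline. The HDM pools with the highest nodose sums, 1 and 4, also had the highest Gpr65, and pool 3, with the lowest sum, had the lowest Gpr65. In saline, where the nodose sum of 3 pools lay within 618 to 628 CPM, Gpr65 stayed within 41.5 to 45.3 CPM. HDM pool 2 and saline pool 4 had near-equal nodose sums, 702 and 705 CPM, with Gpr65 at 38.3 and 45.2 CPM. Of the 8 nodose markers 0 passed, and 4 passed as higher with the block, where 3.01% of all genes did. At an unadjusted p under 0.05, 6 were higher (edgeR, 10.4% of all genes). Their median log2 fold change was 0.32, with 7 above 0, and 0.28 after the GC correction, beside −0.006 over all genes tested. Of the 7 jugular markers tested 0 passed, and with the block 1 passed as higher and 1 as lower (3.01% and 1.03% of all genes). At an unadjusted p under 0.05, 1 was higher and 3 were lower (10.4% and 7.69%), with a median of −0.10. The part of the nodose and jugular makeup in the values of Asic3 and Gpr65 was not tested.

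**Figure D4:**
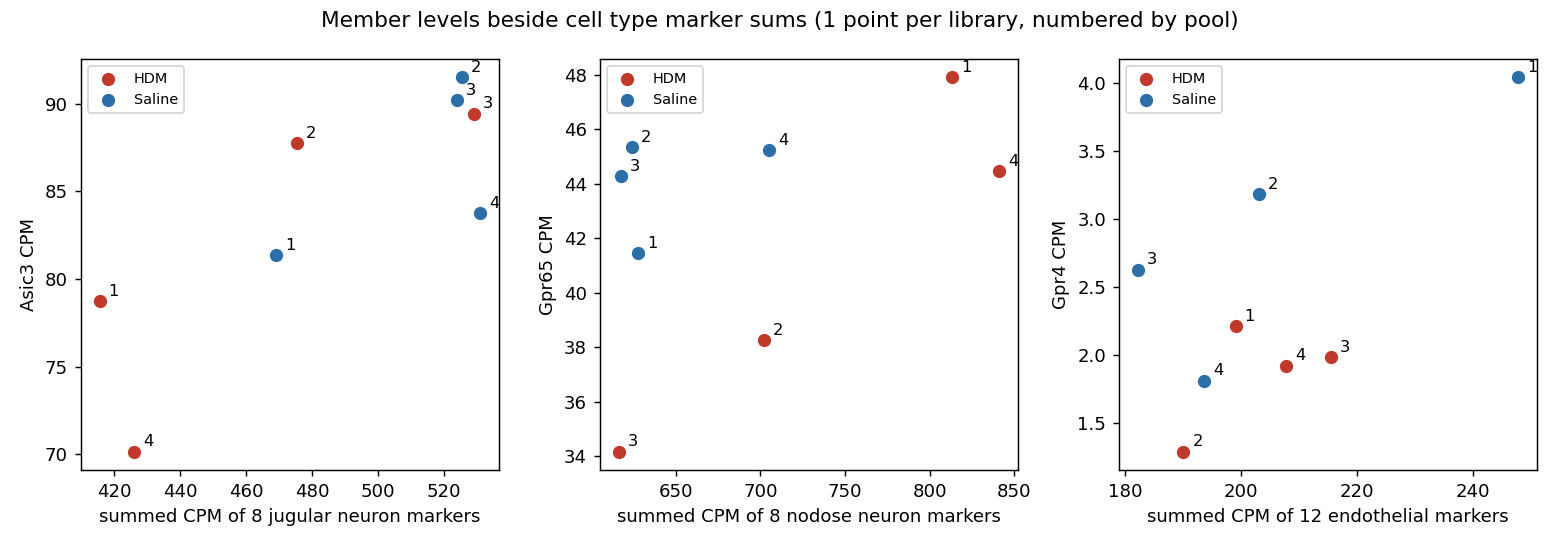
Asic3 against the summed CPM of 8 jugular markers, Gpr65 against 8 nodose markers, and Gpr4 against 12 endothelial markers, 1 point per library, numbered by pool. Among the HDM pools, 1 and 4 have the lowest Asic3 with the lowest jugular sums, and the highest Gpr65 with the highest nodose sums. Saline pools 2 and 4 have a higher Gpr65 than HDM pool 4 at lower nodose sums. Saline pool 1 sits alone at 4.05 CPM of Gpr4 and a sum of 248 CPM.

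The genes whose log2 CPM was most like that of a member over the 8 libraries were taken from 13714 genes by Pearson's r, as a description. They were Lgi3, Cntnap1 and Gpr3 for Asic1 (r from 0.915 to 0.957), and Rusc1, Epn2 and Bloc1s3 for Asic2 (0.945 to 0.963). For Asic3 they were Camk2g, Cdh9 and Galnt14 (0.974 to 0.984), for Gpr4 Eef1a1, Igfbp5 and Mocos (0.973 to 0.977), and for Gpr65 Msrb3, Gpsm2 and Zfp612 (0.945 to 0.963). All 8 libraries, with their group and depth, are shared by these values. Of the genes searched, 7 had an r above 0.9 with Asic1, 26 with Asic2, 35 with Asic3, 60 with Gpr4 and 11 with Gpr65.

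The 4 lists of other genes around acid sensing held 0 that passed as higher, where 1.23% of all genes did, and 0 as lower, where 0.159% did (edgeR). Among 27 other proteins whose activity depends on pH, 23 had enough counts, and at an unadjusted p under 0.05 1 was higher and 1 lower, where 10.4% of all genes were higher and 7.69% lower. Kcnk3, a leak potassium channel closed by acid, averaged 48.1 ± 4.83 CPM in HDM and 38.6 ± 3.33 CPM in saline (SD, n = 4 each). Its log2 fold change was 0.32 (SE 0.076, edgeR adjusted p = 0.0575). It passed with the block (adjusted p = 0.0189) as 1 of the 23, where 3.01% of all genes passed as higher, and its log2 fold change was 0.21 with block plus GC correction (adjusted p = 0.143). Clcn3, a chloride and proton exchanger, had −0.15. The related leak channels Kcnk2 and Kcnk4 had 0.10 and 0.19. The other leak channels of this list lay on both sides of 0, from −0.16 to 0.059. The median of the 23 was 0.005.

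Of 12 ASIC partners and related sodium channel subunits 8 were tested, with a median log2 fold change of 0.089. At an unadjusted p under 0.05, 1 of the 8 was higher, where 10.4% of all genes were. Bdkrb2, a bradykinin receptor, had 0.29 (edgeR adjusted p = 0.156), Scnn1a, a subunit of the epithelial sodium channel, 0.20 (−0.013 without HDM pool 4), Lin7b 0.14 and Stoml1, a stomatin-like protein, 0.10. Of 36 transporters and enzymes of acid and base handling 34 were tested, 4 higher and 4 lower at an unadjusted p under 0.05 (10.4% and 7.69% of all genes), with a median of −0.024. Slc16a3, a lactate and proton carrier, had 0.34 (edgeR adjusted p = 0.0897), its chaperone Bsg 0.14, the carrier Slc16a7 −0.17 and the proton exchanger Slc9a9 −0.13. Of 28 G protein and cyclic AMP pathway genes 27 were tested, 6 higher and 3 lower at an unadjusted p under 0.05 (10.4% and 7.69% of all genes), with a median of 0.018. With the block 4 of them passed as higher, where 3.01% of all genes did, namely Gnas, Gna12 and Gnai2, which encode G protein alpha subunits, and Prkaca, a catalytic subunit of protein kinase A that was named after its values were seen. Their log2 fold changes without the block were 0.23, 0.19, 0.15 and 0.19, and in the fit with block plus GC correction 0.12, 0.094, 0.071 and 0.14 (edgeR adjusted p between 0.160 and 0.382). Gna11 had 0.16. Gnas lies in a locus with overlapping transcripts, so its counts are uncertain.

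Several of these genes were called in other fits too. None of those named next was called in the fit by group alone or in either GC-corrected fit. Of all genes those fits called 1.38%, 0% with the GC correction, and 0.289% with block plus GC correction. In DESeq2, which called 5.11% of the genes with an adjusted p as higher, Kcnk3 (adjusted p = 0.00719), Slc16a3 (0.0300), Gnai2 (0.0211), Gna12 (0.0446) and Gnas (0.0378) passed as higher. Kcnk3 also passed as higher with no filter on low counts (edgeR adjusted p = 0.00325, 1.32% of all genes), with robust dispersion (0.0417, 1.75%) and without HDM pool 3 (0.0242, 1.67%). Gnas passed without HDM pool 3 (edgeR adjusted p = 0.0446), and Gna12 (0.0428) and Prkaca (0.0430) passed without saline pool 4, where 1.03% of all genes were called higher. The endothelial gene Slco1a4 passed as lower with no filter (edgeR adjusted p = 0.0391, 0.941% of all genes) and without HDM pool 3 (0.0353, 0.499%).

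**Figure D5:**
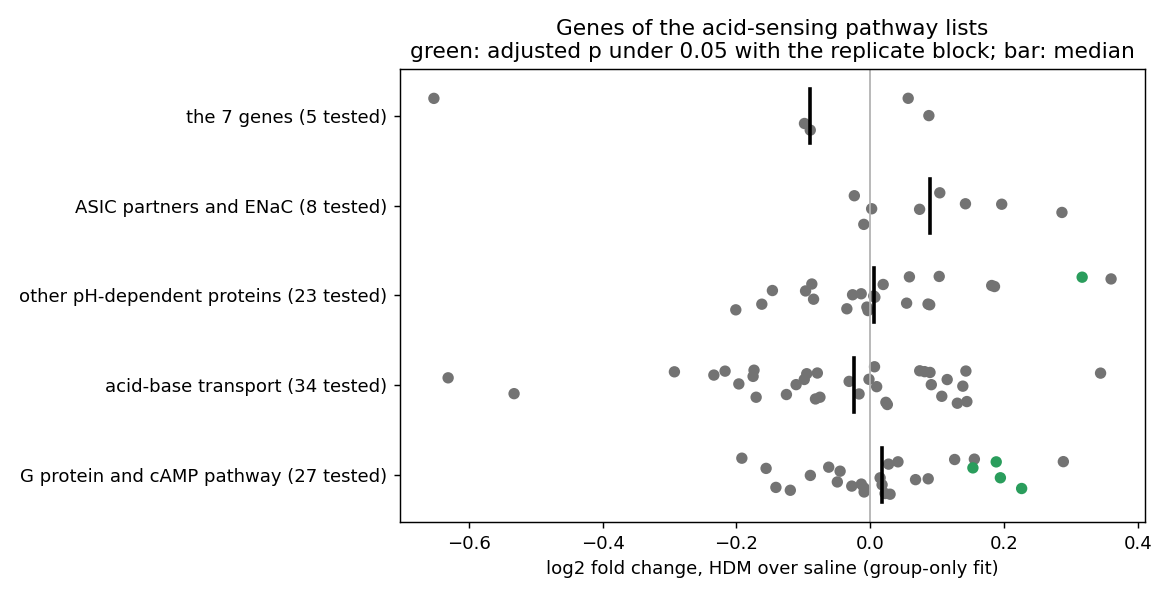
Log2 fold change of HDM over saline in the fit by group alone (x axis) for every tested gene of 5 lists, 1 point per gene with vertical scatter for display, and the list median as a black bar. Green points, Kcnk3 among the pH-dependent proteins and 4 of the G protein and cyclic AMP pathway, passed with the replicate block. Medians lie between −0.090 and 0.089.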

How the data were processed

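RNA of vagal ganglia was measured in 8 libraries. Per the labels' protocols, RNA was column-purified from homogenised ganglia and sequenced as stranded mRNA libraries with paired reads of 50 bases. The deposited table holds raw counts per gene, made by the authors with featureCounts on GRCm38 (mm10), per the submitters' processing notes. The sources used here name no aligner, version or strand setting. Symbols, spans and transcript GC content came from GENCODE M21 (55154 of 55335 genes had a symbol, 54899 the same span), and start windows from RefSeq (6 of 7 members found).

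Low genes were removed by filterByExpr in edgeR 4.0.16 (17618 kept, 37717 removed). Counts were scaled by TMM and compared by group alone in the quasi-likelihood F-test, adjusted by Benjamini-Hochberg. Tools run beside it were DESeq2 1.42.0 and limma 3.58.1 in R 4.3.3. Batch labels pair the pools, so a block on pool number was an alternative. Deviations of same-numbered pools from their group means correlated by −0.048 to 0.039, and 0 of 8 libraries had the highest correlation with its namesake. The pairing rests on the labels. The GC correction fitted, per library, a natural spline (4 degrees of freedom) of transcript GC to log2 CPM, over genes whose mean log2 CPM exceeded 3, and used it as an offset. FPKM uses the table's Length column, an exonic length in bases given per the file headers. Floors of 3 counts cover counting error only, and p-values measure the spread between pools.

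The members and lists were chosen with earlier results of these data known. The text names all members, up to 4 genes with the smallest p from each list described, and the 3 genes most correlated with each tested member.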

Additional observations from a re-analysis of the deposited data

How the results depend on the processing

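None of the 5 tested members was called in any of the 22 alternatives run, and DESeq2 gave Gpr4 no adjusted p (unadjusted p = 0.00888). Of the members' log2 fold changes, Asic2 changed sign, from 0.057 to −0.031 with the GC correction and −0.028 with replicate block and GC correction. Scnn1a ranged from −0.045 to 0.40 when 1 library or batch was left out, and its sign turned without HDM pool 4 (−0.013) and without batch 4 (−0.045). The number of genes called over the whole table, 244 in the fit by group alone, was 722 with no filter, 871 in DESeq2, 713 with the replicate block, 0 with the GC correction (2063 at an unadjusted p under 0.05), 51 with replicate block and GC correction, and 709 at a threshold of 0.10. Leaving out 1 library or 1 batch gave 0 to 383, with 0 without HDM pool 1, HDM pool 2, saline pool 3 or batch 2, 4 without batch 1, 16 without batch 3, 4 without batch 4, 61 without HDM pool 4, 98 without saline pool 2 and 383 without HDM pool 3. The causes were not tested. The block changed no call of a member. Levels of Asic4 and Gpr132 lie at the limit of this depth, and with no filter their log2 fold changes had 95% intervals of −1.08 to 3.29 and −2.09 to 0.91.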
